A study of Mus musculus with 64 samples.

Results

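The results concern 10 genes of the liver sinusoid, followed through the day in livers in which the mitochondrial enzyme gene Acsf3 had been knocked down. The genes were taken by symbol from a table of 55487 genes. They comprise 2 adhesion molecules, Vcam1 and Icam1, and 8 genes that mark the identity of liver sinusoidal endothelial cells, namely Eng, Stab1, Stab2, Clec4g, Kdr, Pecam1, Fcgr2b and Dnase1l3. The assay was BRB-seq, in which the 3′ ends of transcripts of many bulk samples are tagged with a sample barcode and a unique molecular identifier (UMI). The samples were whole livers of C57BL/6J mice, all male and all fed ad libitum. Mice had received an AAV8 vector with a hairpin against Acsf3 (sh-Acsf3, 32 libraries) or with a control hairpin (sh-Ctl, 32 libraries), and livers were collected 4 weeks after injection. Each treatment was sampled every 3 h at 8 points of the day, counted in zeitgeber time (ZT) from lights on, and each point has 4 replicate libraries. Both groups therefore carry an AAV8 vector, and livers without one were not analysed here. The promoter that drives the hairpin and the age of the mice were not given in the sources used here. The comparison asks whether genes of the sinusoidal lining and its adhesion molecules differed between knockdown and control livers, and at which times of day.

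Liver sinusoids are lined by a specialised endothelium with open pores and no continuous basement membrane. Its cells clear waste from the blood through scavenger and Fc receptors. Endothelium that meets inflammatory cytokines displays more VCAM-1 and ICAM-1, which hold passing leukocytes through their integrins. Endothelial cells are not the sole source of either molecule, since macrophages and activated stellate cells can also make them.

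The 10 genes were chosen with results from these same libraries in view, the 8 identity genes as steady genes to be set against the adhesion molecules across treatments and times. Their treatment differences and daily patterns are therefore descriptions, given without p-values, and nothing is read from how many of them passed a threshold. Levels are in CPM, the count of a gene relative to the TMM-scaled library total. Differences are sh-Acsf3 minus sh-Ctl on the log2 scale, with the standard error (SE) of an edgeR fit to all 64 libraries. A gene is said to pass the threshold where its edgeR p, adjusted over 10097 tested genes, was under 0.05. All 10 genes were tested, and all 10 reached the level of the filter on low counts in sh-Ctl alone. Levels are compared between libraries for one gene and not between genes, since counts of 3′ ends do not scale alike across genes.

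Libraries held 0.839 to 9.35 M UMIs in sh-Acsf3 (median 2.03 M) and 1.48 to 6.06 M in sh-Ctl (median 3.13 M). Acsf3, which encodes a mitochondrial acyl-CoA synthetase, averaged 2.56 ± 1.68 CPM in sh-Acsf3 and 11.3 ± 2.42 CPM in sh-Ctl (SD within times, n = 32 each), and its averaged difference was -2.23 ± 0.13 (edgeR adjusted p = 1.82e-21). The summed level of 10 hepatocyte genes was 128000 to 181000 CPM in sh-Acsf3 and 103000 to 173000 CPM in sh-Ctl, so the labelled tissue showed its defining transcripts. In no sh-Acsf3 library and in 4 sh-Ctl libraries the acute-phase gene Saa1 lay above 1000 CPM. In 6 sh-Acsf3 and 2 sh-Ctl libraries the sum of 13 exocrine pancreas genes lay above 100 CPM. The labels name replicates without saying whether each is a separate animal, so p-values measure the spread between these libraries.

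Vcam1 and Icam1 are textbook targets of the NF-kappa B family of transcription factors, so the letters these factors read were looked up in the members' promoters. RefSeq promoter sequence (GRCm38.p6) was matched for 7 of the 10 genes, and Vcam1, Pecam1 and Dnase1l3 were not searched. The 250 bases before the RefSeq start were searched for GGNNNTTCC and its reverse complement GGAANNNCC. The motif occurred at 2 positions before Icam1, at 1 before Eng, and in none of the windows of Stab1, Stab2, Clec4g, Kdr and Fcgr2b. Of 32851 promoter windows of the same length, 15.7% held at least 1 match and 1.46% held matches at 2 or more positions. The windows of Icam1 (chr9:21015690-21015939, plus strand) and Eng (chr2:32646345-32646594, plus strand) are shown because they hold matches, and that of Clec4g (chr8:3720652-3720901, minus strand) because it is an identity gene without one. Each runs 5′ to 3′ on the strand of the gene, and capitals mark the matches.
Icam1: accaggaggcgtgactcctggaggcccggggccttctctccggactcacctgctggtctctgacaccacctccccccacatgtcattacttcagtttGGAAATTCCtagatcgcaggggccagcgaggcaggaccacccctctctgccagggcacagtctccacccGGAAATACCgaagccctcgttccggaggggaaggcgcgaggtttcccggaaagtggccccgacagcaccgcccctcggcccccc
Eng: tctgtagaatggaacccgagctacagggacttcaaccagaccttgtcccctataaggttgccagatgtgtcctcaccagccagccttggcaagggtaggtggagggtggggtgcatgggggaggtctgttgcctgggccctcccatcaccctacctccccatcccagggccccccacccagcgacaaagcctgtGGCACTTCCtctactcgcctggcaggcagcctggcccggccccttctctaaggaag
Clec4g: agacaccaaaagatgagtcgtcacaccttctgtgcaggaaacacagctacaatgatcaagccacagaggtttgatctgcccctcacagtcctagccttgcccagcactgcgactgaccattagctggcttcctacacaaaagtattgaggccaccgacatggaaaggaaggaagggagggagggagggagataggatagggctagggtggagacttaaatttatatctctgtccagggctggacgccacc
The Icam1 matches began 153 and 84 bases before the start, and the Eng match began 56 bases before it. The first Icam1 match fits the motif on both strands. The Icam1 promoter site was among those from which this motif is known, so its match is built in. A match of letters is a description and not a bound site.

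Vcam1 (ENSMUSG00000027962, chr3:116109949-116129688, minus strand, GRCm38) encodes a membrane protein that binds integrins containing Itga4. It was higher in sh-Acsf3 at all 8 times. It averaged 12.2 ± 3.07 CPM in sh-Acsf3 and 4.65 ± 1.83 CPM in sh-Ctl (SD within times, n = 32 each), from 1189 UMIs in sh-Acsf3 and 479 UMIs in sh-Ctl. The averaged difference was 1.46 ± 0.11 (log2, SE), a fold of 2.75. In bulk tissue, more cells that make a transcript and more transcript per cell cannot be told apart, which holds for every gene below.

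The single libraries show how far the treatments stood apart. At ZT0 Vcam1 was at 8.81, 15.8, 10.4 and 9.07 CPM in sh-Acsf3, against 2.93, 4.92, 3.50 and 3.27 CPM in sh-Ctl. At ZT3 the values were 13.8, 7.96, 9.49 and 5.40 CPM in sh-Acsf3 and 2.34, 3.60, 1.77 and 3.00 CPM in sh-Ctl. The lowest sh-Acsf3 library thus lay above the highest sh-Ctl library at both of these times. At ZT6 the values were 13.1, 10.4, 9.27 and 8.77 CPM in sh-Acsf3 and 8.31, 4.16, 1.59 and 3.95 CPM in sh-Ctl, where one control library came close to the knockdown libraries. At ZT9 they were 12.8, 12.4, 12.9 and 9.12 CPM in sh-Acsf3 and 1.29, 4.79, 2.40 and 1.94 CPM in sh-Ctl. The treatments were far apart at this time, which had the largest difference on the log2 scale. At ZT12 they were 14.1, 13.9, 18.5 and 16.3 CPM in sh-Acsf3 and 5.08, 4.59, 2.51 and 5.18 CPM in sh-Ctl. At ZT15 they were 11.9, 16.8, 14.7 and 12.0 CPM in sh-Acsf3 and 13.5, 4.65, 7.85 and 9.14 CPM in sh-Ctl. ZT15 was the one time at which the groups overlapped, through a single control library at 13.5 CPM. At ZT18 they were 11.9, 9.22, 19.5 and 16.1 CPM in sh-Acsf3 and 5.46, 5.60, 5.64 and 4.36 CPM in sh-Ctl. At ZT21 they were 11.6, 6.05, 14.6 and 13.9 CPM in sh-Acsf3 and 5.85, 5.19, 5.30 and 5.11 CPM in sh-Ctl. The lowest sh-Acsf3 value of that time came from the shallowest library of the study, with 5 Vcam1 UMIs. In all, 30 of 32 sh-Acsf3 libraries lay above every sh-Ctl library of their time. Groups that did not overlap, with sh-Acsf3 higher, were found at 7 or more times for 0.208% of the tested genes.

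**Figure D1:**
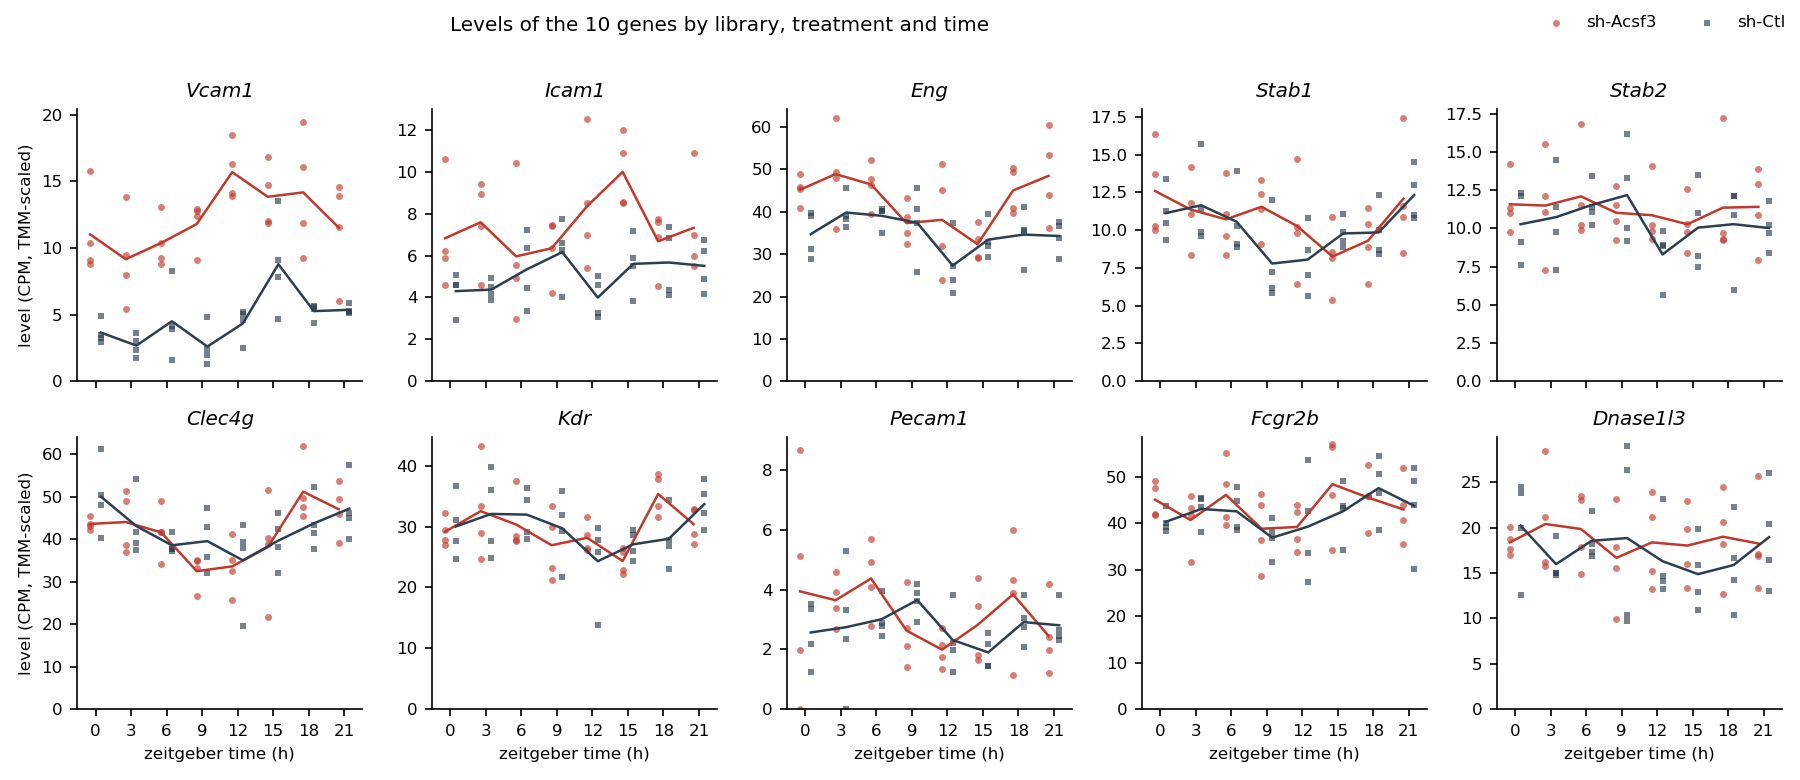
Level of each of the 10 genes (CPM, linear axes from 0) against zeitgeber time (h) in each library, with circles for sh-Acsf3 left of each time and squares for sh-Ctl right of it. Lines join the means of 4 libraries. The Vcam1 lines stay apart at all 8 times, while those of Stab1, Clec4g, Kdr and Fcgr2b cross.

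By time, Vcam1 differed by 1.56 ± 0.32 at ZT0, by 1.81 ± 0.34 at ZT3, by 1.06 ± 0.27 at ZT6, 2.32 ± 0.35 at ZT9, 1.81 ± 0.29 at ZT12, 0.68 ± 0.26 at ZT15, 1.29 ± 0.29 at ZT18 and 1.16 ± 0.32 at ZT21 (log2, SE). It passed the threshold at ZT0, ZT3, ZT9, ZT12 and ZT18. The shares of all tested genes past it were 0.515% at ZT0, 0.0693% at ZT3, 0.218% at ZT6, 0.357% at ZT9, 1.4% at ZT12, 0.0297% at ZT15, 0.168% at ZT18 and 0.317% at ZT21, and 0.109% of genes passed at 5 or more times. A test that the difference is unequal across the 8 times called 0 of 10097 genes by edgeR and 0 by limma-voom, with 306 genes at an unadjusted p under 0.05 by edgeR. Single-time calls rested on 4 libraries a group: the Vcam1 calls at ZT0 and ZT3 were each lost under 3 of 13 alternatives and that at ZT18 under 7, including library size only and the fit without the libraries high in Saa1, while the ZT18 difference stayed between 1.09 and 1.35 in those 7 fits.

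In the order of levels, sh-Acsf3 means ran upward through 9.16 ± 3.51 CPM at ZT3, 10.4 ± 1.92 at ZT6, 11.0 ± 3.24 at ZT0, 11.5 ± 3.88 at ZT21, 11.8 ± 1.80 at ZT9, 13.9 ± 2.34 at ZT15, 14.2 ± 4.54 at ZT18 and 15.7 ± 2.17 at ZT12 (SD, n = 4). The sh-Ctl means ran upward through 2.61 ± 1.53 CPM at ZT9, 2.68 ± 0.796 at ZT3, 3.65 ± 0.876 at ZT0, 4.34 ± 1.25 at ZT12, 4.50 ± 2.79 at ZT6, 5.26 ± 0.609 at ZT18, 5.36 ± 0.332 at ZT21 and 8.78 ± 3.66 at ZT15. Neighbours in either order differed by less than the larger of their SDs, apart from ZT3 and ZT0 in sh-Ctl. The time with the highest mean was ZT12 in sh-Acsf3 and ZT15 in sh-Ctl.

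**Figure D2:**
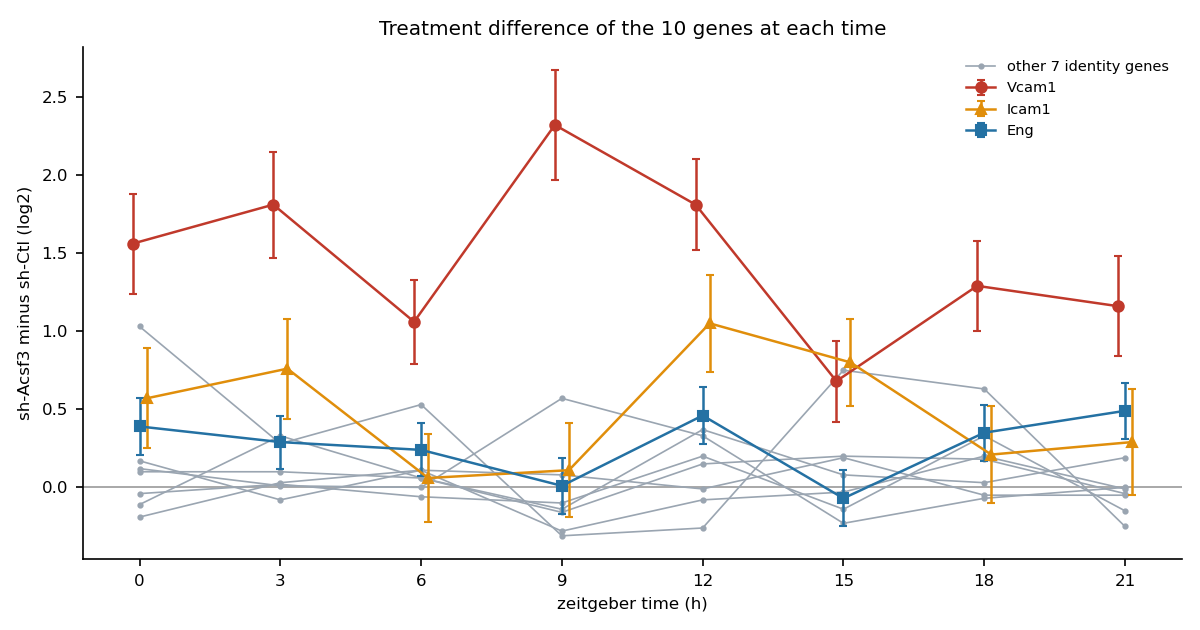
Difference of each gene (sh-Acsf3 minus sh-Ctl, log2) against zeitgeber time (h), with SE bars for Vcam1, Icam1 and Eng and thin grey lines for the other 7 identity genes. Vcam1 lies above Icam1 and Eng at 7 of 8 times and falls to 0.68 at ZT15, where Icam1 stands at 0.80.

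Icam1 (ENSMUSG00000037405, chr9:21015985-21028817, plus strand) encodes the ligand of the leukocyte integrins that contain Itgb2. It averaged 7.39 ± 2.36 CPM in sh-Acsf3 and 5.12 ± 1.31 CPM in sh-Ctl (SD within times, n = 32 each), from 685 UMIs in sh-Acsf3 and 503 UMIs in sh-Ctl. The averaged difference was 0.48 ± 0.11, a fold of 1.4, and the sh-Acsf3 mean was the higher one at all 8 times. At ZT12 Icam1 was at 8.53, 5.41, 12.5 and 6.99 CPM in sh-Acsf3, against 3.09, 4.59, 5.02 and 3.27 CPM in sh-Ctl. At ZT15 it was at 8.50, 8.58, 10.9 and 12.0 CPM in sh-Acsf3, against 5.90, 7.15, 5.52 and 3.85 CPM in sh-Ctl. These were the 2 times at which the groups did not overlap, which 3.99% of tested genes reached with sh-Acsf3 higher. At ZT6 the values were 10.4, 4.92, 2.99 and 5.54 CPM in sh-Acsf3 and 7.22, 4.44, 6.37 and 3.34 CPM in sh-Ctl, so the groups lay within each other. By time, Icam1 differed by 0.57 ± 0.32 at ZT0, by 0.76 ± 0.32 at ZT3, by 0.06 ± 0.28 at ZT6, 0.11 ± 0.30 at ZT9, 1.05 ± 0.31 at ZT12, 0.80 ± 0.28 at ZT15, 0.21 ± 0.31 at ZT18 and 0.29 ± 0.34 at ZT21, and it passed the threshold at none of them. The largest Icam1 differences thus stood at ZT12 and ZT15, and those at ZT6, ZT9, ZT18 and ZT21 were smaller than their SE.

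Eng (ENSMUSG00000026814, chr2:32646595-32682669, plus strand) encodes endoglin, a co-receptor for ligands of the TGF-beta family. It was the one identity gene past the threshold of the averaged difference. It averaged 42.7 ± 7.81 CPM in sh-Acsf3 and 35.1 ± 5.57 CPM in sh-Ctl (SD within times, n = 32 each), a difference of 0.27 ± 0.06 and a fold of 1.21. At ZT0, the one time without overlap, it was at 48.9, 45.8, 45.3 and 40.8 CPM in sh-Acsf3, against 39.7, 28.9, 39.0 and 31.3 CPM in sh-Ctl. At ZT15 it was at 29.3, 29.0, 37.5 and 33.6 CPM in sh-Acsf3, against 32.0, 29.3, 32.9 and 39.5 CPM in sh-Ctl, and the groups fully overlapped. Non-overlap at 1 or more times, with sh-Acsf3 higher, was found for 15.0% of tested genes. The fitted difference was above 0 at 7 of 8 times, though at ZT9 the means were 37.3 CPM in sh-Acsf3 and 37.4 CPM in sh-Ctl, and it ran between -0.07 ± 0.18 at ZT15 and 0.49 ± 0.18 at ZT21. The Eng gene overlaps Fpgs on the opposite strand, which held 14829 UMIs. Whether counting used strand was not given in the sources used here, so reads of the pair may not have been told apart.

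The other 7 identity genes had averaged differences between -0.03 and 0.30, and none passed the threshold. Stab1, a scavenger receptor, averaged 10.8 ± 2.73 CPM in sh-Acsf3 and 10.1 ± 2.14 CPM in sh-Ctl, a difference of 0.09 ± 0.08. Stab2, the receptor that clears hyaluronan, averaged 11.3 ± 2.69 CPM in sh-Acsf3 and 10.4 ± 2.45 CPM in sh-Ctl, a difference of 0.10 ± 0.08. Both scavenger receptors differed by about their SE. Stab1 overlaps Nt5dc2 on the opposite strand (509 UMIs), with the same uncertainty as for Eng. Clec4g, a C-type lectin of sinusoidal endothelium, averaged 41.5 ± 7.02 CPM in sh-Acsf3 and 42.1 ± 7.28 CPM in sh-Ctl, a difference of -0.03 ± 0.06. Kdr, the main receptor for VEGF-A on endothelium, averaged 29.6 ± 4.39 CPM in sh-Acsf3 and 29.6 ± 5.24 CPM in sh-Ctl, a difference of 0.01 ± 0.06. Under other scalings and subsets both took either sign, within -0.09 to 0.03 for Clec4g and -0.05 to 0.07 for Kdr. Fcgr2b, the inhibitory Fc receptor that takes up immune complexes, averaged 43.4 ± 6.99 CPM in sh-Acsf3 and 42.1 ± 6.72 CPM in sh-Ctl, a difference of 0.05 ± 0.06. Dnase1l3, a secreted nuclease that degrades circulating DNA, averaged 18.6 ± 4.71 CPM in sh-Acsf3 and 17.4 ± 5.43 CPM in sh-Ctl, a difference of 0.08 ± 0.10. For these genes the groups overlapped at all 8 times.

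Pecam1, a junctional adhesion molecule of endothelium and blood cells, was the least counted member, with 401 UMIs in sh-Acsf3 and 272 UMIs in sh-Ctl. It averaged 3.21 ± 1.79 CPM in sh-Acsf3 and 2.73 ± 1.07 CPM in sh-Ctl, and 1 library of each treatment held no Pecam1 UMI. Its difference of 0.30 ± 0.17 was close in size to that of Eng but had a wider SE, and it did not pass the threshold. One sh-Acsf3 library, replicate 3 at ZT0, held 77 of the 401 UMIs, at 8.66 CPM. In fits without a single library the Pecam1 difference ran between 0.19 and 0.35.

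Of the 10 members, 3 passed the threshold of the averaged difference upward and 0 downward, against 8.26% of all tested genes upward and 6.21% downward. The members' median difference was 0.09, and that of all tested genes was -0.0085, with 47.3% of genes above 0. Scaling by library size alone moved the median of all genes to 0.0456. The same count of 3 members was found under all 14 alternatives. Without the libraries high in Saa1 the differences were 1.41 for Vcam1, 0.51 for Icam1 and 0.21 for Eng, and without those with pancreas RNA they were 1.51, 0.50 and 0.27.

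A ratio within each library removes the scaling between libraries. Per 1000 UMIs of the 8 identity genes, Vcam1 had 22.9 to 94.9 UMIs in sh-Acsf3 (median 64.2) and 7.94 to 78.2 UMIs in sh-Ctl (median 22.7). The ratio of the treatment means was 2.47, and the groups did not overlap at 6 times, the exceptions being ZT15 and ZT21. Icam1 had a median of 35.9 UMIs per 1000 in sh-Acsf3 and 25.1 in sh-Ctl, a ratio of means of 1.35. ZT3 was the one time without overlap, narrowly, with the lowest sh-Acsf3 library at 22.4 and the highest sh-Ctl library at 22.2. At ZT12 and ZT15, where the Icam1 levels in CPM did not overlap, the ratios did. The identity genes themselves summed to 145 to 241 CPM in sh-Acsf3 (median 206) and 112 to 238 CPM in sh-Ctl (median 191). The distance between the treatments in Vcam1 was thus present relative to the identity genes and relative to the whole library. The ratio uses the contrast by which the genes were chosen and carries no test.

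**Figure D3:**
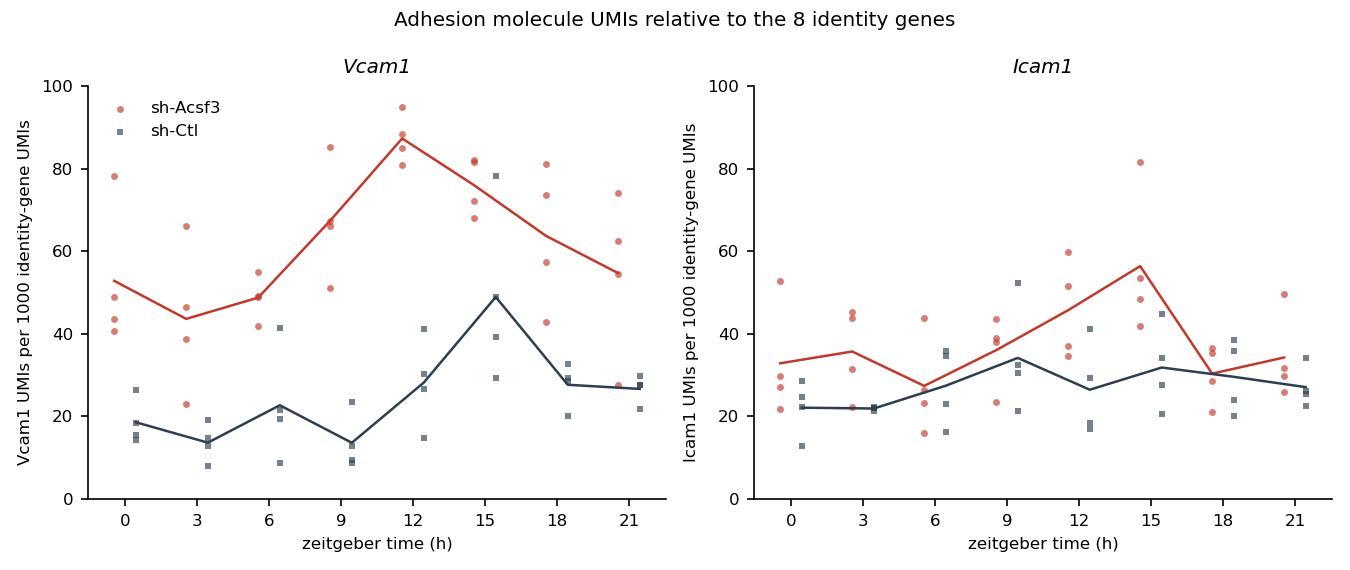
UMIs of Vcam1 (left panel) and Icam1 (right panel) per 1000 UMIs of the 8 identity genes in each library, against zeitgeber time (h), with circles for sh-Acsf3 left of each time and squares for sh-Ctl right of it. Lines join the means of 4 libraries. Vcam1 lies at 22.9 to 94.9 in sh-Acsf3 and 7.94 to 78.2 in sh-Ctl, and Icam1 overlaps between treatments at all times but ZT3.

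Daily patterns were described with a 24 h cosine per treatment, whose amplitude is the height of the peak above the daily mean on the log2 scale. Vcam1 had an amplitude of 0.32 ± 0.11 in sh-Acsf3 with a fitted peak at 14.5 h, and of 0.54 ± 0.11 in sh-Ctl with a peak at 17.1 h. Clec4g had an amplitude of 0.27 ± 0.06 in sh-Acsf3 with a peak at 22.2 h, and of 0.21 ± 0.06 in sh-Ctl with a peak at 22.8 h. The fitted peaks of Clec4g lay shortly before lights on in both treatments. Eng had an amplitude of 0.24 ± 0.06 in sh-Acsf3 with a peak at 0.785 h, and of 0.16 ± 0.06 in sh-Ctl with a peak at 2.87 h. Stab1 had an amplitude of 0.20 ± 0.08 in sh-Acsf3 with a peak at 2.51 h, and of 0.28 ± 0.08 in sh-Ctl with a peak at 23.2 h. The amplitudes of the other 6 genes lay between 0.06 and 0.19 in sh-Acsf3 and between 0.07 and 0.17 in sh-Ctl. A 24 h rhythm passed the threshold for Eng and Clec4g in sh-Acsf3, where 19.6% of genes passed, and for Vcam1, Stab1 and Clec4g in sh-Ctl, where 19.4% did. A test of different rhythms between treatments called 0 genes by edgeR and 0 by limma-voom, with 431 genes at an unadjusted p under 0.05 by edgeR, so these lists do not show that a rhythm differed. Each of these rhythm calls was lost under some of 14 alternatives: under 3 for Vcam1 in sh-Ctl, under 3 for Eng and 2 for Clec4g in sh-Acsf3, and under 8 for Stab1 and 6 for Clec4g in sh-Ctl.

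**Figure D4:**
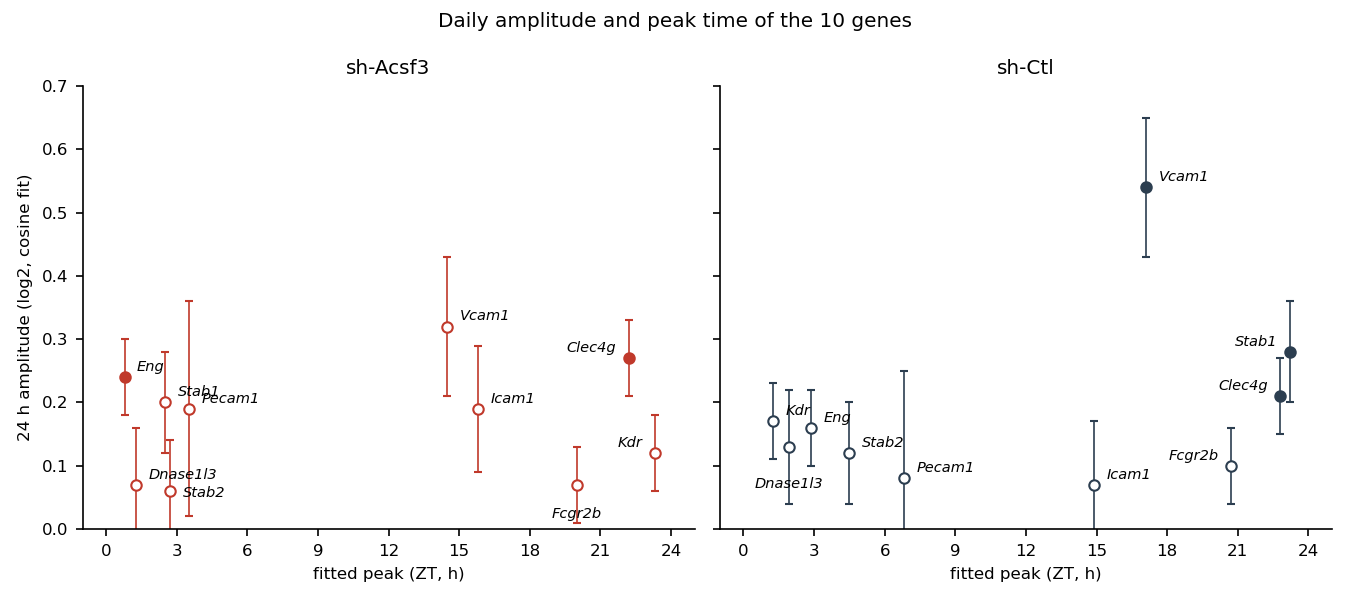
Fitted 24 h amplitude (log2, with SE bars) against fitted peak time (ZT, h) for the 10 genes in sh-Acsf3 (left panel) and sh-Ctl (right panel). Filled points passed the edgeR threshold for a rhythm in that treatment. Among the filled points, Vcam1 in sh-Ctl peaks at 17.1 h, Clec4g at 22.2 h in sh-Acsf3 and 22.8 h in sh-Ctl, Stab1 in sh-Ctl at 23.2 h and Eng in sh-Acsf3 at 0.785 h. For open points with an amplitude near its SE the peak time is not fixed by the fit.

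Of 30 other listed genes of sinusoidal endothelium 29 were tested, 4 rose and 0 fell, with a median difference of 0.09. Of all tested genes 8.26% passed the threshold upward, 6.21% downward and 14.5% in either direction. These shares are the ones to set beside the count of each list below. With scaling by library size alone 7 genes of the list rose. Cd36, a fatty acid and scavenger receptor that hepatocytes and macrophages also make, rose by 0.85 ± 0.10 (edgeR adjusted p = 3.64e-10), with 19.6 CPM in sh-Acsf3 and 10.7 CPM in sh-Ctl. Ptprb, an endothelial phosphatase, rose by 0.20 ± 0.04 (edgeR adjusted p = 0.000881). Maf, a transcription factor, rose by 0.17 ± 0.04 (edgeR adjusted p = 0.00354), and Cd38, an enzyme that consumes NAD, rose by 0.25 ± 0.09 (edgeR adjusted p = 0.044). The Cd38 call was lost without any one of 27 libraries, and the Maf call without a gene filter (adjusted p = 0.0833) and without replicate 1 (0.0856). Ctsl and Plpp3, the 2 genes of the list with the highest mean levels, both differed by -0.11 and did not pass. The summed level of the list was 872 to 1320 CPM in sh-Acsf3 and 907 to 1380 CPM in sh-Ctl.

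Of 21 listed genes of other vessels and of the basement membrane 10 were tested, 6 rose and 0 fell, with a median of 0.51. Of the 10, 9 reached the filter level in sh-Ctl alone (the CPM of 10 UMIs at the median depth, in at least 4 libraries). Col4a1 and Col4a2, the chains of type IV collagen in the vascular basement membrane, rose by 0.60 ± 0.08 and 0.71 ± 0.12 (edgeR adjusted p = 9.03e-09 and 7.27e-06). Lamb1, a laminin chain of the same layer, rose by 0.72 ± 0.13 (edgeR adjusted p = 3.51e-05). Plvap, the protein of endothelial diaphragms, rose by 0.43 ± 0.08 (edgeR adjusted p = 2.01e-05), with 19.7 CPM in sh-Acsf3 and 14.4 CPM in sh-Ctl. Col4a1 and Col4a2 are made by stellate cells as well as endothelium. Ly6a, with 25.1 CPM in sh-Acsf3 and 15.5 CPM in sh-Ctl, rose by 0.71 ± 0.16 (edgeR adjusted p = 0.00146), a call lost without replicate 3. Entpd1, named here to complete the count of 6, averaged 3.04 CPM in sh-Acsf3 and 1.83 CPM in sh-Ctl and rose by 0.65 ± 0.16. Of the other vessel markers in the list, Vwf differed by 0.16 ± 0.13, Esam by 0.15 ± 0.08, Emcn by -0.14 ± 0.16 and Ephb4 by -0.19 ± 0.11, and none of these 4 passed. Several markers of other vessels stayed near 0: Apln was without a UMI in 30 of 32 sh-Acsf3 and 28 of 32 sh-Ctl libraries, and Cldn5 averaged 0.363 CPM in sh-Acsf3 and 0.346 CPM in sh-Ctl. Cd34 and Mcam, also not tested, averaged 2.04 and 1.96 CPM in sh-Acsf3 and 1.24 and 1.45 CPM in sh-Ctl. These vessel markers, from Vwf to Mcam, were picked for mention after their values were seen. Of the 10 tested genes of the list, 8 lay above 0.

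The receptors to which VCAM-1 and ICAM-1 bind were looked up among the adhesion partners, of which 13 of 25 were tested, 5 rose and 0 fell, with a median of 0.17. Of the 13, 11 reached the filter level in sh-Ctl alone, so the count and the median are descriptions. Itgb2 and Selplg had the lowest sh-Ctl means of the tested genes of this list, and their differences are given without p-values. Itgb2, the beta chain of the ICAM-1 receptors, averaged 3.93 CPM in sh-Acsf3 and 2.07 CPM in sh-Ctl, a difference of 0.86 ± 0.17. Itgb1, the beta chain that pairs with Itga4, rose by 0.17 ± 0.05 (edgeR adjusted p = 0.0127), a call that was lost without a gene filter and without replicate 1, 3 or 4. Selplg, the leukocyte ligand of selectins, averaged 2.79 CPM in sh-Acsf3 and 1.34 CPM in sh-Ctl, a difference of 1.06 ± 0.18. Cd44, a hyaluronan receptor of leukocytes, rose by 0.70 ± 0.12 (edgeR adjusted p = 2.06e-05), and Itga9, an integrin chain that can also bind VCAM-1, by 0.44 ± 0.10 (edgeR adjusted p = 0.000964). Cd47, the gene of the list with the highest mean level, differed by 0.07 ± 0.04 and did not pass. Itga4 itself was too low to be tested, at 1.46 CPM in sh-Acsf3 and 0.627 CPM in sh-Ctl, and Itgal, the alpha chain of the lymphocyte ICAM-1 receptor, differed by 0.25 ± 0.12 and did not pass. Itga4 and Itgal were added as counter-receptors outside the rule for named genes.

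Of 27 listed genes downstream of NF-kappa B and interferon gamma 22 were tested, 8 rose and 0 fell, with a median of 0.22. Only 17 of the 22 reached the filter level in sh-Ctl alone, and the other 5 were tested through their counts in sh-Acsf3, so the count and the median are descriptions. Cxcl9, a chemokine induced by interferon gamma, averaged 42.4 CPM in sh-Acsf3 and 19.4 CPM in sh-Ctl and rose by 1.13 ± 0.16 (edgeR adjusted p = 6.01e-07). Cxcl16, a chemokine that sinusoidal endothelium displays, rose by 0.65 ± 0.10 (edgeR adjusted p = 6.19e-07). Gbp2, an interferon-induced GTPase, rose by 1.01 ± 0.18 (edgeR adjusted p = 3.97e-05). Tnfaip3, an inhibitor of NF-kappa B that its activity induces, averaged 2.84 CPM in sh-Acsf3 and 1.33 CPM in sh-Ctl. Its difference of 1.01 ± 0.20 is given without a p-value because of its low level in sh-Ctl. Sod2, another target of NF-kappa B, differed by -0.03 ± 0.05 and did not pass. Nfkbia and Cxcl1 differed by 0.01 ± 0.06 and 0.03 ± 0.21, and Tnfaip2 and Birc3 by -0.11 ± 0.09 and -0.14 ± 0.10. None of these passed, and they were picked after their values were seen. Of the 22 tested genes, 17 lay above 0. The other 4 genes that rose, named here to complete the count, were the chemokines Ccl2 and Cxcl10, the NF-kappa B subunit gene Nfkb2 and Ciita, the activator of class II antigen presentation genes.

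Among 36 genes of endothelial signalling 25 were tested, 23 of which reached the filter level in sh-Ctl alone, and 3 rose and 0 fell, with a median of 0.18. Since 8.26% of all tested genes passed upward, this count is not read as a result about the list. Gdf2, which encodes BMP9, a ligand that binds endoglin, averaged 9.35 CPM in sh-Acsf3 and 6.36 CPM in sh-Ctl and rose by 0.54 ± 0.10 (edgeR adjusted p = 6.75e-05). Id1, a target of BMP signalling, rose by 0.77 ± 0.14 (edgeR adjusted p = 3.71e-05), and Rspo3, a Wnt enhancer made by endothelium and stellate cells, by 0.45 ± 0.10 (edgeR adjusted p = 0.000396). Id3 and S1pr1, the genes of the list with the highest mean levels, differed by 0.20 ± 0.09 and -0.13 ± 0.07 and did not pass. With scaling by library size alone, 8 genes of this list rose.

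**Figure D5:**
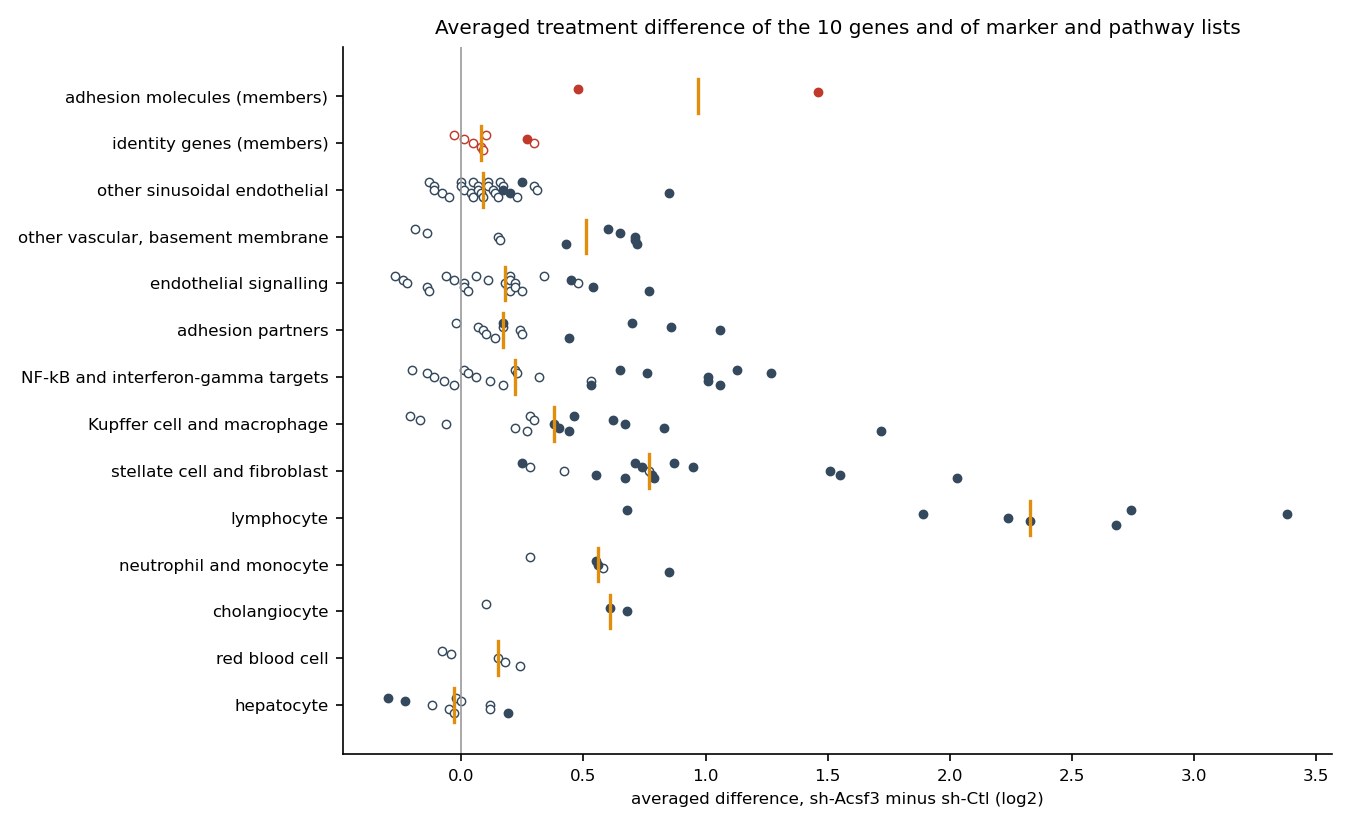
Averaged difference (sh-Acsf3 minus sh-Ctl, log2) of each tested gene by list, with members in red and other lists in dark grey. Filled points passed the edgeR threshold, and orange bars mark list medians. The median is 0.09 for the other sinusoidal list, 0.51 for other vascular genes, 0.77 for stellate cell genes and 2.33 for lymphocyte genes. Only 1 of the 7 tested lymphocyte genes reached the filter level in sh-Ctl alone, so that median is not comparable with the others. Mesothelial and platelet lists had no tested gene, and the pancreas list is left out because 8 libraries set its values.

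Many markers of other cell types that can make or meet VCAM-1 and ICAM-1 moved with the treatment, and their part in the member values was not tested. Of 15 stellate cell and fibroblast genes, all tested, 12 rose and 0 fell, with a median of 0.77, and their summed level was 415 to 823 CPM in sh-Acsf3 (median 541) and 197 to 401 CPM in sh-Ctl (median 318). Of 15 Kupffer cell and macrophage genes, all tested, 8 rose and 0 fell, with a median of 0.38, and their sum was 270 to 726 CPM in sh-Acsf3 (median 449) and 203 to 744 CPM in sh-Ctl (median 322). The stellate sums of the treatments did not overlap, while the macrophage sums did. In each of these lists 14 of the 15 genes reached the filter level in sh-Ctl alone. Col3a1, a collagen of activated stellate cells, averaged 59.9 CPM in sh-Acsf3 and 20.4 CPM in sh-Ctl and rose by 1.55 ± 0.12 (edgeR adjusted p = 1.53e-14). Marco, a macrophage scavenger receptor, averaged 2.89 CPM in sh-Acsf3 and 0.94 CPM in sh-Ctl, where 3 libraries held no UMI. Its difference of 1.72 ± 0.25 is a description, since its level in sh-Ctl was low. Timd4, Folr2 and Cd163 of the macrophage list differed by -0.17 ± 0.17, -0.06 ± 0.14 and -0.21 ± 0.19. Clec4f and Cd5l differed by 0.28 ± 0.11 and 0.27 ± 0.13. None of these passed, they were picked after their values were seen, and 12 of the 15 macrophage genes lay above 0. No marker of either list was at 0 in all libraries of a treatment.

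Of 14 lymphocyte genes 7 were tested, 7 rose and 0 fell, with a median of 2.33, and their sum was 12.0 to 82.8 CPM in sh-Acsf3 (median 52.1) and 4.81 to 21.2 CPM in sh-Ctl (median 8.96). Only 1 of the 7 tested genes reached the filter level in sh-Ctl alone, so genes of this list entered the test through the group in which they were high. Ccl5, a chemokine of T and NK cells, averaged 26.3 CPM in sh-Acsf3 and 2.58 CPM in sh-Ctl and rose by 3.38 ± 0.14 (edgeR adjusted p = 9.07e-26). Among B cell genes, Cd79b averaged 1.99 CPM in sh-Acsf3 and 1.15 CPM in sh-Ctl, where 5 libraries held no UMI. Its difference of 0.68 ± 0.25 is given without a p-value because of its low level in sh-Ctl. Ms4a1, which was not tested, averaged 1.42 CPM in sh-Acsf3 and 0.720 CPM in sh-Ctl. Cd79a had no UMI in 29 of 32 sh-Acsf3 libraries and in all 32 sh-Ctl libraries. Of 9 neutrophil and monocyte genes 5 were tested and 3 rose, but only 3 of the 5 reached the filter level in sh-Ctl alone. The list had a sum of 34.2 to 74.9 CPM in sh-Acsf3 and 18.7 to 90.7 CPM in sh-Ctl. Of its neutrophil genes, S100a8 averaged 2.32 CPM in sh-Acsf3 and 1.63 CPM in sh-Ctl and S100a9 averaged 2.68 CPM in sh-Acsf3 and 2.11 CPM in sh-Ctl, neither past the threshold, and Ly6g was without a UMI in 31 of 32 libraries of each treatment. The B cell and neutrophil genes were picked for mention after their values were seen. Of 6 cholangiocyte genes 3 were tested, 2 of which reached the filter level in sh-Ctl alone, and 2 rose. These were Spp1, at 63.2 CPM in sh-Acsf3 and 39.5 CPM in sh-Ctl, and Epcam, at 3.12 and 1.97 CPM. Sox9 differed by 0.10 ± 0.10 and did not pass. Krt19 and Krt7, not tested and picked after their values were seen, averaged 1.21 and 0.593 CPM in sh-Acsf3 and 1.10 and 0.517 CPM in sh-Ctl. None of 5 red blood cell genes passed, and of 10 hepatocyte genes 1 rose and 2 fell. Platelet and mesothelial genes were too low to be tested, with sums of at most 8.67 and 19.4 CPM in sh-Acsf3 and 7.19 and 6.08 CPM in sh-Ctl.

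The genes whose pattern over the 16 group means was most like that of Vcam1, by Pearson's r of log2 CPM among the 7776 genes whose mean reached 5 CPM, were Eif4e3 (0.90), Iqgap1 (0.90), Ifi27l2b (0.89), Angptl2 (0.89) and Axl (0.89). Among those most like Icam1 were Gnb1 (0.86), Scd2 (0.86), Idh2 (0.83) and Rnf11 (0.83). Those most like the mean of the 8 identity genes were Ablim1 (0.94), Tuba1b (0.90), Lasp1 (0.90), Ifi47 (0.89) and Cldn1 (0.88). Vcam1 and Icam1 had an r of 0.74 with each other, while Vcam1 had an r of 0.34 with Eng and between -0.13 and 0.32 with the other 7 identity genes. The points share libraries, depth and the split into 2 treatments, so these values describe likeness and carry no test.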

How the data were processed

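UMI counts per gene and library are as deposited by the authors, who aligned reads with STAR to GRCm38/mm10 per the submitters' processing notes. Versions, annotation, strand use and the merging of UMIs were not given in the sources used here. The table holds 55487 genes, 23436 with a UMI, and each of its 64 columns carries the treatment, time and replicate of one labelled sample. No library was a copy of another: over 96 pairs of replicates, chi-square per degree of freedom was at least 2.54.

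Counts were fitted in R 4.3.3 with edgeR 4.0.16 (filterByExpr with minimum count 10 and minimum total 15, TMM, robust quasi-likelihood). The model had 16 group means (10097 genes, 48 residual degrees of freedom, biological coefficient of variation 0.189), with contrasts averaged over times and at each time. A second model gave each treatment a mean and a 24 h cosine (58 residual degrees of freedom). The Benjamini-Hochberg adjustment covered all tested genes, with a threshold of 0.05. Amplitudes came from least squares on log2 CPM with a prior count of 2. The scripts were tested on simulated data. DESeq2 1.42.0 and limma-voom (limma 3.58.1) were alternatives.

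The members, the lists and the tests were chosen with earlier results of these data known. Named genes are the members, Acsf3, from each list up to 4 with the smallest p past the threshold plus the 2 with the highest mean CPM, and the 5 most like Vcam1, Icam1 and the identity mean; a few genes that this rule names are not reported here. Gene positions are from GENCODE M21 (GRCm38). Figures were drawn with matplotlib 3.10.9 in Python 3.11.15.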

Additional observations from a re-analysis of the deposited data

Results flagged for a closer look

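In each group of 4 libraries, the level of each member and the ratios to the identity genes were checked for a library far from the other 3. This gave 8 such libraries in 192 groups, or 4.17%, where chance gives about 1 in 20. Vcam1 lay at 9.12 CPM in sh-Acsf3 replicate 4 at ZT9, below the other 3 at 12.4 to 12.9 CPM, and at 4.36 CPM in sh-Ctl replicate 4 at ZT18, below 5.46 to 5.64 CPM. At both times the treatments did not overlap. Eng lay at 35.0 CPM in sh-Ctl replicate 2 at ZT6, below 40.2 to 40.7 CPM. Stab2 lay at 17.2 CPM in sh-Acsf3 replicate 3 at ZT18, above 9.22 to 9.67 CPM, and Kdr at 37.4 CPM in sh-Acsf3 replicate 2 at ZT6, above 27.7 to 28.4 CPM. Clec4g lay at 41.6 CPM in sh-Ctl replicate 4 at ZT6, above 37.3 to 37.8 CPM. Dnase1l3 was high in sh-Ctl replicate 3 both at ZT3, with 19.1 CPM above 14.8 to 15.0 CPM, and at ZT12, with 23.2 CPM above 13.2 to 14.7 CPM. None of the 8 was a library set apart above for Saa1 or pancreas RNA.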

How the results depend on the processing

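The members' direction held where it was called: over 14 alternatives Vcam1 kept a difference between 1.35 and 1.56, Icam1 between 0.42 and 0.55 and Eng between 0.21 and 0.32, and over 64 fits without a single library they lay between 1.42 and 1.54, 0.44 and 0.51, and 0.25 and 0.29, past the threshold each time. The ratio of Vcam1 to the identity genes stayed between 2.27 and 2.67 and that of Icam1 between 1.28 and 1.45. The members were chosen with these contrasts known, so their values and calls here are descriptions and not a test. Counts over all genes moved more, and the cause was not tested. The 1461 genes of the averaged difference became 971 with a mean CPM of at least 5, and 787 to 1361 without one replicate number. The 310 calls summed over times became 1743 with no gene filter and 78 to 293 without one replicate number. With no gene filter 273 genes had an unequal difference across times and 1 a different rhythm, against 0 and 0. Rhythmic genes numbered 1140 to 1695 in sh-Acsf3 (1981 in all) and 1160 to 1441 in sh-Ctl (1954 in all) without one replicate number. Of genes past the averaged threshold 57.1% were higher, against 82.0% with library size only and 66.5% without replicate 3. Numbers of called genes in the lists ran between 2 and 7 of other sinusoidal genes, 3 and 8 of adhesion partners, 5 and 12 of NF-kappa B and interferon gamma targets and 3 and 8 of endothelial signalling genes, and the 7 lymphocyte calls became 1 with a mean CPM of at least 5. Genes below that mean were not tested in that setting. Of 44 named genes past the threshold outside the members, 33 kept it in every fit in which they were tested. Ccr2 lost its call without one sh-Acsf3 library (ZT0 replicate 2, adjusted p = 0.0507), and Fgb without one sh-Ctl library (ZT9 replicate 1, 0.0512). Same-numbered libraries of the treatments shared a number only: their deviations correlated at -0.157 to 0.261, with 6 of 32 pairs over 0.1, and 20 of 64 libraries correlated best with their own number. With the replicate block the counts were 1558 for the averaged difference, 382 over times and 2072 and 2030 for rhythms in sh-Acsf3 and sh-Ctl. Depth limits the values of single libraries, which held as few as 4 Vcam1 UMIs.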
